A study of Neurospora crassa with 54 samples.

Results

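A divergent gene pair was defined here as 2 neighbouring genes of Neurospora crassa that are read away from each other, the first on the minus strand and the second on the plus strand. The genes of each chromosome were ordered by start. A pair was taken where the gap, counted from the end of 1 gene to the start of the next, was 1 to 500 bp and both gene midpoints lay more than 200 kb from either chromosome end. No expression value entered the choice. The rule found 929 pairs among 10391 neighbouring pairs, and they hold 1858 of the 10398 annotated genes. The same gap and end distance gave 1536 tandem pairs, in which both genes lie on 1 strand, and 822 convergent pairs, which are read toward each other.

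In a divergent pair the start sites of both genes face a single short intergenic stretch, so the 2 promoters lie side by side or overlap. H2A.Z is a variant of histone H2A that is placed in the nucleosomes flanking start sites, and in yeasts and animals both genes of a divergent pair commonly carry it. SET-7 places methyl groups on lysine 27 of H3, which marks silenced regions and in N. crassa is found largely toward the chromosome ends.

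RNA was read in mycelium of 4 strains with 3 libraries each: ∆hH2Az, which lacks the gene for H2A.Z, ∆set-7, which lacks the methyltransferase gene, the double deletion strain that lacks both genes, and Wild type. Growth of all 4 strains lasted 12 h under constant light at 30 °C in VMM, a minimal medium, with 2% glucose, and the libraries were made from poly(A) RNA. The labels give each strain a single isolate code, and nothing says that its 3 libraries came from separate cultures. The p-values therefore measure the spread between these libraries, and a strain is 1 isolate. The other 42 of the series' 54 samples are chromatin samples and were not analysed here. The deposited values are read counts per gene, with totals of 13581416 to 19720473 per library.

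Both deleted genes were lowered in the strains labelled as lacking them, and neither belongs to a divergent pair. CPM values are read counts scaled to the library total multiplied by the library's TMM scaling factor, which ran from 0.832 to 1.172. hH2Az had 16.7 to 32.5 CPM in ∆hH2Az and 23.1 to 37.8 CPM in the double deletion strain. It had 78.8 to 105 CPM in ∆set-7 and 65.6 to 76.9 CPM in Wild type. set-7 had 2.71 to 3.92 CPM in ∆set-7 and 3.13 to 5.16 CPM in the double deletion strain, against 8.32 to 12.47 CPM in ∆hH2Az and 7.85 to 9.62 CPM in Wild type. Replicates 1 and 2 of every strain carry the label tag 920, and replicate 3 carries another tag and stood apart. Across all tested genes, log2 CPM of replicates 1 and 2 correlated at r = 0.988 to 0.993 in the 4 strains, and replicate 3 correlated with either at 0.932 to 0.975. The labels do not say what the tag stands for, so results are also given for the 8 libraries tagged 920 and for replicate 3 alone.

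The divergent pairs had a median gap of 265 bp (interquartile range 193 to 361 bp), against 259 bp for the tandem pairs. They made up 35.3% of the 2630 divergent neighbours away from chromosome ends. Chromosome I held 251 of them, V held 179, IV held 129, III held 121, II held 91, VI held 84 and VII held 74. Of the member genes, 1804 are annotated as protein coding, 28 as tRNA, 23 as other noncoding RNA, 2 as rRNA and 1 as a tRNA pseudogene. Of the 1858 members, 1731 passed the filter on low counts, among them none of the tRNA genes and 18 of the noncoding RNA genes. Both genes were tested in 817 divergent pairs, 1 gene in 97 and neither in 15. Both genes were tested in 1155 tandem and 566 convergent pairs.

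Divergent genes were read at a higher level than genes in general. In Wild type the median level of tested members was 15.8 CPM per kilobase of exon, against 13.3 CPM per kilobase for tested tandem genes and 10.1 CPM per kilobase for all tested genes. The 2 genes of a divergent pair often differed in level, by a median of 4.03-fold per kilobase, against 4.07-fold in tandem pairs. Across the 817 divergent pairs the log2 levels per kilobase of the 2 genes correlated at r = 0.160, against 0.126 across the 1155 tandem pairs. A gene that overlaps a further annotated gene was present in 491 divergent pairs (52.9%), in 354 tandem pairs (23.1%) and in 46 convergent pairs. The counts carry no strand and leave out reads shared by overlapping genes, so such genes are undercounted and their reads cannot be split from antisense reads.

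Loss of H2A.Z changed divergent genes about as often as other genes. In ∆hH2Az against Wild type, 499 genes of the 817 pairs passed the edgeR test at an adjusted p under 0.05, which is 30.5%, against a background of 31.1% of all 8372 tested genes. Of these 242 were higher and 257 lower in ∆hH2Az, while 16.2% of all tested genes were higher and 14.9% lower. Under upper-quartile scaling, which moves the median log2 fold change of all genes to -0.12, 198 were higher and 329 lower. Among genes of tandem pairs 32.2% were called.

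When 1 gene of a divergent pair changed, its partner changed with it more often than genes did in general. Both genes were called in the same direction in 70 divergent pairs (8.57%), 31 with both higher and 39 with both lower in ∆hH2Az (22 and 55 under upper-quartile scaling), and in opposite directions in 23 (2.82%). In 313 pairs a single gene was called and in 411 neither was. Of the divergent genes that were higher in ∆hH2Az, 25.6% had a partner that was also higher, and of those that were lower, 30.4% had a lower partner. In tandem pairs 22.3% of higher genes had a higher neighbour and 22.3% of lower genes had a lower one.

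Opposite changes were less frequent in divergent than in tandem pairs. Tandem pairs had both genes called in the same direction in 83 cases (7.19%), or 7.35% when weighted to the gaps of the divergent pairs, and in opposite directions in 57 (4.94%). The same direction thus held for 75.3% of divergent pairs with both genes called, against 59.3% of tandem and 52.8% of convergent ones. Among pairs in which both genes moved by at least 1 on the log2 scale, 44 divergent pairs went the same way and 9 opposite ways, against 69 and 25 tandem pairs. These shares are descriptions over pairs that share their libraries, and the difference between the kinds of pair has no test.

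**Figure D1:**
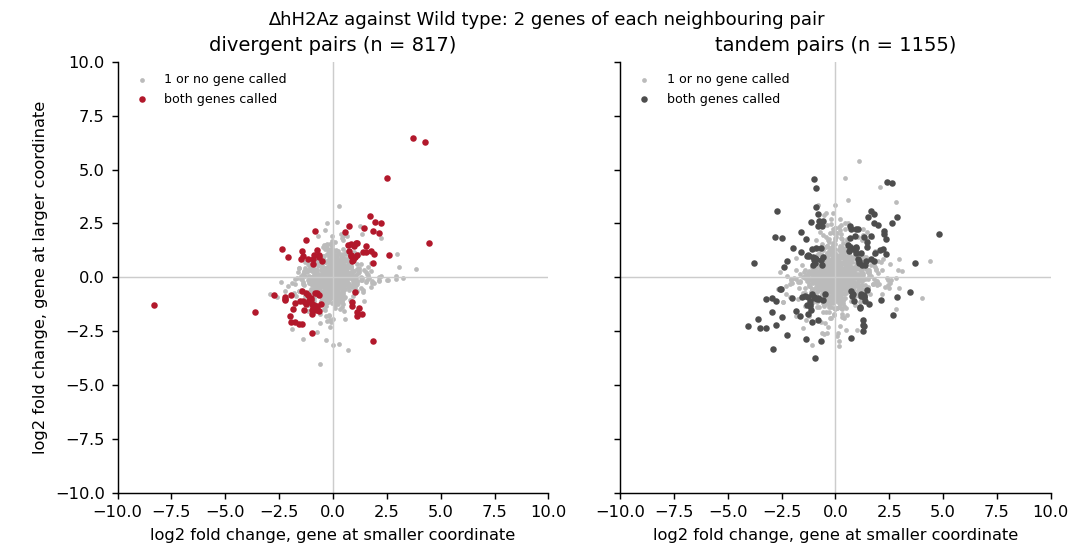
Each point is a pair of neighbouring genes with both tested, divergent in the left panel (817 pairs) and tandem in the right panel (1155 pairs). The axes give the log2 fold change in ∆hH2Az against Wild type of the gene at the smaller and at the larger coordinate, and coloured points are pairs with both genes called (edgeR adjusted p under 0.05). Coloured divergent points lie mostly in the quadrants of shared direction (70 against 23), and coloured tandem points are spread more evenly (83 against 57).

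The counts depended on single libraries. Without Wild type replicate 2 the opposite shares were close, 1.45% of divergent and 1.63% of tandem pairs. The count of shared changes was 35 without Wild type replicate 1, 32 without Wild type replicate 2, 40 without ∆hH2Az replicate 1 and 38 without ∆hH2Az replicate 2, in place of 70. With the 8 libraries tagged 920 alone, where replicates lay closer together, 55.2% of all tested genes were called. There, 171 of 819 divergent pairs (20.9%) were called in the same direction and 81 (9.89%) in opposite directions, against 225 (19.4%) and 143 (12.3%) tandem pairs.

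Loss of H2A.Z together with SET-7 gave similar counts, but the order of divergent and tandem shares depended on the fit. In the double deletion strain against Wild type, 504 genes of the 817 pairs were called (30.8%, 206 higher and 298 lower), against 30.5% of all tested genes, 15.3% higher and 15.2% lower. Both genes changed the same way in 68 divergent pairs (8.32%) and in opposite ways in 19 (2.33%), against 78 (6.75%) and 40 (3.46%) tandem pairs. The 68 pairs became 40 without Wild type replicate 1 and 36 without Wild type replicate 2. In the double deletion strain against ∆set-7, 493 divergent genes were called (30.2%, 200 higher and 293 lower), against 29.7% of all tested genes, 14.7% higher and 15% lower. Upper-quartile scaling, with a median of all genes of -0.13, gave 159 higher and 399 lower. Under that scaling opposite calls were no rarer in divergent than in tandem pairs, with 3.06% against 2.6% for the double deletion strain against Wild type and 3.3% against 3.2% for it against ∆set-7. In the main fit against ∆set-7, 64 divergent pairs (7.83%) shared a direction and 20 (2.45%) did not, against 74 (6.41%) and 42 (3.64%) tandem pairs. The 64 pairs became 37 without ∆set-7 replicate 1 and 36 without ∆set-7 replicate 2.

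**Figure D2:**
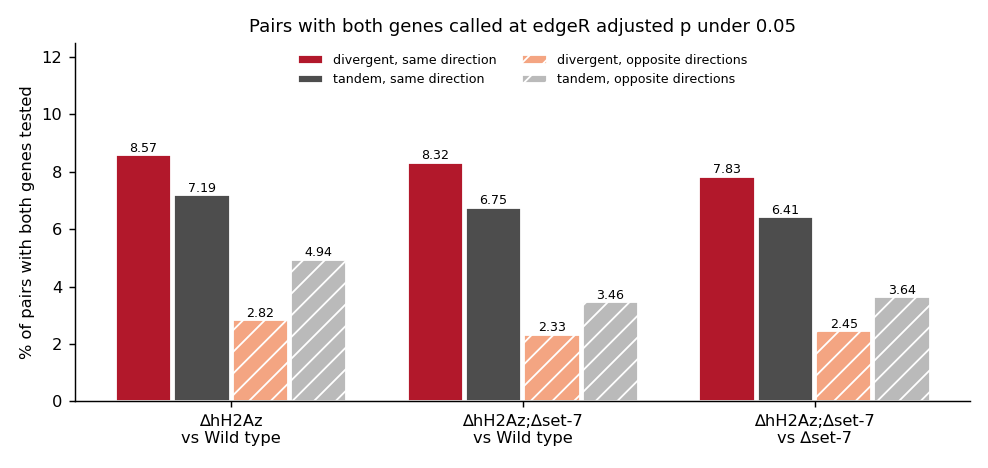
Bars give the percentage of pairs with both genes tested in which both genes were called, in the same direction (solid) or in opposite directions (hatched), for divergent and tandem pairs in the 3 comparisons in which H2A.Z was lost. In each comparison the solid divergent bar (7.83 to 8.57%) is higher than the solid tandem bar (6.41 to 7.19%). The hatched divergent bar (2.33 to 2.82%) is lower than the hatched tandem bar (3.46 to 4.94%). The hatched order turns round under upper-quartile scaling in both comparisons of the double deletion strain. It also turns round against Wild type with no filter beyond 1 read, and against ∆set-7 without ∆set-7 replicate 3. With the libraries tagged 920 alone, both orders turn round against ∆set-7.

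The comparison of the double deletion strain with ∆set-7 uses none of the libraries of ∆hH2Az against Wild type, so it shows which pairs repeat. Of the 31 divergent pairs with both genes higher in ∆hH2Az, 15 were called the same way there and 30 had the same signs. Of the 39 with both genes lower, 27 were called the same way and 38 had the same signs. Of the 23 opposite pairs, 10 were called the same way and 22 had the same signs. The tandem pairs repeated at like rates, with 21 of 44, 27 of 39 and 26 of 57 called the same way.

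Sizes of change were correlated between the 2 genes of a pair. Across the 817 divergent pairs the log2 fold changes in ∆hH2Az against Wild type correlated at a Pearson r of 0.319 and a Spearman rho of 0.239. Across the 1155 tandem pairs they correlated at 0.199 and 0.156, and across the 566 convergent pairs at 0.134 and 0.136. The pairs share all 12 libraries and are not replicates, so the values are descriptions. For the double deletion strain against Wild type, r was 0.300 over divergent and 0.197 over tandem pairs, and against ∆set-7 it was 0.240 and 0.192. In these 3 comparisons the 2 genes had the same sign in 56.4%, 56.3% and 52.5% of divergent pairs. Over tandem pairs the shares were 52.8%, 53.6% and 55.7%. Computed from libraries with the same replicate number, r in ∆hH2Az against Wild type was 0.354, 0.318 and 0.280 over divergent pairs and 0.220, 0.194 and 0.126 over tandem pairs. The divergent Pearson r was the higher one for each of the 3 replicate numbers in all 3 comparisons in which H2A.Z was lost. Spearman's rho was higher over tandem pairs for replicate 2 of the double deletion strain against Wild type (0.174 over divergent and 0.191 over tandem pairs) and for replicates 1 and 2 of it against ∆set-7 (0.203 and 0.106 over divergent, 0.217 and 0.166 over tandem pairs).

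Partners also moved together between libraries of 1 strain, where no deletion differs. For replicate 3 minus the mean of replicates 1 and 2, r over divergent pairs was 0.400 in ∆hH2Az, 0.392 in the double deletion strain, 0.0771 in ∆set-7 and 0.213 in Wild type. Over tandem pairs it was 0.154, 0.207, 0.0857 and 0.197 in the same order of strains. For replicate 2 minus replicate 1 it was 0.229, 0.0581, 0.203 and 0.178 over divergent pairs and 0.109, 0.0821, 0.117 and 0.0793 over tandem pairs. The divergent value exceeded the tandem one in 6 of these 8 differences between libraries.

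**Figure D3:**
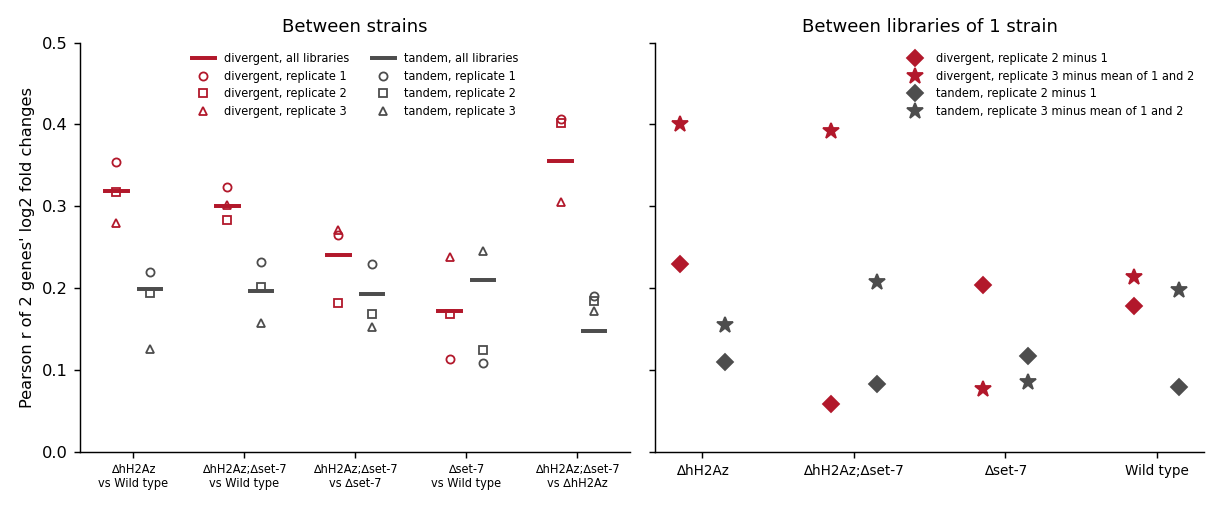
The vertical axis gives the Pearson correlation of the 2 genes' log2 differences across divergent (red) and tandem (grey) pairs. In the left panel, lines use all libraries and open symbols the libraries of 1 replicate number. In the right panel, filled symbols compare libraries within 1 strain. Red lies above grey at each replicate number in the comparisons in which H2A.Z was lost, and mostly also between libraries of the same strain, up to 0.400 in ∆hH2Az.

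In ∆hH2Az against Wild type the correlation was highest for gaps of 101 to 200 bp and lowest for gaps of 1 to 100 bp. It did not end at the limit of 500 bp. The 188 tested divergent pairs with gaps of 101 to 200 bp had r = 0.448, with 24 pairs changed the same way (12.8%) and 5 in opposite ways. The 34 pairs with gaps of 1 to 100 bp had r = 0.199, with 4 pairs changed the same way (11.8%) and 2 in opposite ways. For these 34 pairs the double deletion strain had r = 0.222 against Wild type, again the lowest class. Against ∆set-7 it had 0.264, and the lowest was 0.0928 at 401 to 500 bp. In ∆hH2Az against Wild type, pairs with gaps of 201 to 300, 301 to 400 and 401 to 500 bp had r of 0.243, 0.253 and 0.339. Beyond the limit, the 372 divergent pairs with gaps of 501 to 1000 bp had r = 0.335, and the 353 with gaps of 1001 to 2000 bp had r = 0.305. Tandem pairs with gaps of 101 to 200 bp had r = 0.257, and those with gaps of 501 to 1000 bp had 0.216. The share of pairs with both genes called in the same direction was 6.45% and 5.38% in the 2 longer divergent classes, against 7.48% and 5.09% in the tandem ones.

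**Figure D4:**
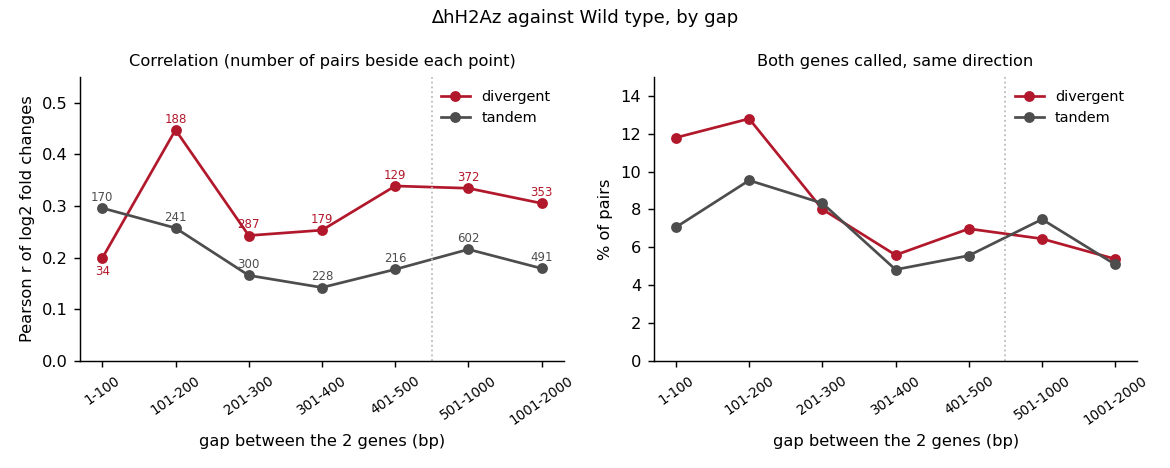
The horizontal axis gives the gap between the 2 genes in classes, and the dotted line marks the limit of 500 bp. The left panel gives the Pearson correlation of log2 fold changes in ∆hH2Az against Wild type with the number of pairs beside each point, and the right panel the percentage of pairs with both genes called in the same direction. Divergent pairs peak at 101 to 200 bp (0.448 and 12.8%), and their correlation at 501 to 2000 bp stays at 0.305 to 0.335.

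Overlapping genes and low levels moved these values for both kinds of pair. Without pairs that hold an overlapping gene, r in ∆hH2Az against Wild type was 0.405 over 384 divergent pairs and 0.234 over 861 tandem pairs. Among genes with a mean of at least 5 CPM, it was 0.212 over 679 divergent pairs and 0.0995 over 852 tandem pairs.

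Most divergent genes that changed did so without their partner. In the 313 pairs with a single gene called in ∆hH2Az, the other gene had the same sign in 168 (53.7%). Where the called gene was higher (157 pairs) the median log2 fold change of the other gene was -0.05, and where it was lower (156 pairs) it was -0.15. A call in 1 gene alone does not show that the 2 genes differ, so the difference between partners was tested itself with limma. In ∆hH2Az against Wild type 253 divergent pairs (31.0%) had genes that changed unequally, against 31.6% of all 7036 tested neighbouring pairs and 33.0% of tandem pairs. Of the pairs, 240 changed unequally in the double deletion strain against Wild type, with 29.6% of all neighbouring pairs called. Against ∆set-7 it was 256 pairs, with 29.8% of all neighbouring pairs called.

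Among pairs in which both genes rose in ∆hH2Az, cyc-1 and NCU01807 stood out by their level. cyc-1 (NCU01808, NC12 chromosome II, 2356042 to 2357819) encodes cytochrome c, the electron carrier between respiratory complexes III and IV. NCU01807 (2358184 to 2359812) starts 365 bp away and overlaps another annotated gene. cyc-1 had 3688, 3377 and 6187 CPM in ∆hH2Az, 5707, 4484 and 3867 CPM in the double deletion strain, 1222, 1571 and 699 CPM in ∆set-7 and 931, 1191 and 903 CPM in Wild type. NCU01807 had 203, 184 and 315 CPM in ∆hH2Az, 224, 183 and 214 CPM in the double deletion strain, 65.0, 68.3 and 50.1 CPM in ∆set-7 and 49.2, 61.2 and 61.2 CPM in Wild type. For both genes, all 6 libraries lacking hH2Az lay above all 6 libraries that keep it. In ∆hH2Az against Wild type the log2 fold change was 2.13 (SE 0.332, edgeR's adjusted p = 0.000722) for cyc-1 and 2.03 (SE 0.231, adjusted p = 9.08e-05) for NCU01807. Their difference of 0.09 (SE 0.245) did not pass the limma test (adjusted p = 0.812).

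The other 3 named pairs in which both genes rose were low or silent in Wild type. NCU17244 (chromosome VII, 2894401 to 2895725) and NCU02329 (2895888 to 2896914) are 163 bp apart. NCU02329 had 36.99, 35.53 and 12.38 CPM in ∆hH2Az, 5.88, 3.75 and 29.2 CPM in the double deletion strain, 0.253, 0.547 and 0.830 CPM in ∆set-7 and 0.169, 0.539 and 0.346 CPM in Wild type. Replicate 3 was the lowest library of ∆hH2Az and the highest of the double deletion strain. NCU17244 followed at lower levels, with 3.63, 2.76 and 2.11 CPM in ∆hH2Az and 0, 0.154 and 0.231 CPM in Wild type. The log2 fold changes were 6.29 (SE 0.920, edgeR's adjusted p = 0.000513) and 4.28 (SE 0.823, adjusted p = 0.00244), and they were unequal, with a difference of -2.16 (SE 0.520, limma adjusted p = 0.00758). On chromosome VII, NCU04557 and NCU04556, 256 bp apart, rose by 2.25 and 2.51 on the log2 scale (edgeR adjusted p = 0.0164 and 0.00837). NCU04557 had 52.3, 46.8 and 7.24 CPM in ∆hH2Az and 11.0, 7.55 and 3.98 CPM in Wild type. NCU04556 had 6.405, 8.12 and 1.103 CPM in ∆hH2Az and 0.928, 0.616 and 1.155 CPM in Wild type. Replicate 3 of ∆hH2Az thus lay within the Wild type range for both genes. The call of NCU04557 was lost in 4 of the alternative fits, with an adjusted p of up to 0.0601.

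NCU08572 (chromosome III, 4868987 to 4869940) and the noncoding RNA gene NCU14124 (4870400 to 4871284) rose with both deletions. NCU14124 had 59.9, 52.6 and 12.95 CPM in ∆hH2Az, 11.4, 11.7 and 4.65 CPM in ∆set-7, 18.9, 17.1 and 25.7 CPM in the double deletion strain and 0.844, 0.231 and 0.346 CPM in Wild type. NCU08572 had 4.16, 3.42 and 4.13 CPM in ∆hH2Az, 1.01, 2.53 and 1.16 CPM in ∆set-7, 7.10, 7.19 and 5.63 CPM in the double deletion strain and 0.506, 0.308 and 0.116 CPM in Wild type. No library of a deletion strain overlapped Wild type for either gene. In ∆set-7 against Wild type the log2 fold change of NCU14124 was 4.31 (SE 0.680, edgeR's adjusted p = 0.00818), while that of NCU08572, 2.38 (SE 0.505), had an adjusted p of 0.0503.

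Of the pairs named for a shared fall in both genes, NCU07865 (chromosome III, 1154498 to 1157909) and NCU07866 (1158122 to 1163021) start 213 bp apart. NCU07865 had 8.84, 9.09 and 6.52 CPM in ∆hH2Az, 6.55, 7.67 and 9.03 CPM in the double deletion strain, 34.0, 30.7 and 36.3 CPM in ∆set-7 and 33.2, 33.3 and 30.4 CPM in Wild type. NCU07866 had 15.7, 14.8 and 15.9 CPM in ∆hH2Az, 15.4, 16.3 and 12.2 CPM in the double deletion strain, 38.9, 41.1 and 50.1 CPM in ∆set-7 and 47.0, 41.7 and 71.5 CPM in Wild type. Libraries with and without hH2Az did not overlap for either gene, and ∆set-7 lay near Wild type. The log2 fold changes in ∆hH2Az were -1.99 (SE 0.204, edgeR's adjusted p = 5.13e-05) and -1.79 (SE 0.231, adjusted p = 0.000211).

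The other pairs named for a shared fall differed in how equal the 2 falls were. NCU05945 and NCU05944 (chromosome VI, 237 bp apart) had log2 fold changes of -1.95 and -2.06 in ∆hH2Az, with 2.29, 2.603 and 4.41 CPM of NCU05945 against 13.2, 9.93 and 12.8 CPM in Wild type. NCU04176 and NCU04177 (chromosome V, 239 bp apart) fell by 1.74 and 2.09. NCU09094 and NCU09095 (chromosome I, 150 bp apart) fell by 3.62 and 1.63, and this difference of -1.93 (SE 0.363) passed the limma test (adjusted p = 0.00182). Each of these falls had an edgeR adjusted p of 0.00147 or less. NCU01751 and NCU01750 (chromosome II, 192 bp apart, both overlapping another gene) fell by 2.50 and 3.34 in the double deletion strain against Wild type. In the same comparison NCU02177 and NCU02176 (chromosome I, 73 bp apart) fell by 1.66 and 2.02.

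Some short intergenic stretches separated genes that moved in opposite directions. tim23 (NCU00371, chromosome III, 3608291 to 3610031) encodes a core subunit of the protein import channel of the mitochondrial inner membrane, and NCU00372 (3610511 to 3615880) starts 480 bp away. tim23 had 112, 105 and 210 CPM in ∆hH2Az, 141, 137 and 197 CPM in the double deletion strain, 38.8, 58.8 and 43.3 CPM in ∆set-7 and 33.4, 38.6 and 44.8 CPM in Wild type. NCU00372 had 5.16, 5.00 and 9.83 CPM in ∆hH2Az, 8.07, 6.98 and 5.63 CPM in the double deletion strain, 26.2, 34.4 and 39.3 CPM in ∆set-7 and 44.4, 43.6 and 66.3 CPM in Wild type. The libraries lacking hH2Az lay all above the others for tim23 and all below them for NCU00372. The within-pair difference in ∆hH2Az against Wild type, tim23 minus NCU00372, was 4.77 (SE 0.301, limma adjusted p = 2.52e-06), from log2 fold changes of 1.87 and -2.95.

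The remaining opposite pairs showed the same separation in both strains without H2A.Z. gh61-9 (NCU05969, chromosome VI, 3273186 to 3276449) belongs to a family of enzymes that cleave polysaccharides by oxidation. It had 16.6, 22.1 and 13.3 CPM in ∆hH2Az and 89.8, 106 and 75.2 CPM in Wild type, while its partner NCU05968, 430 bp away, had 25.2, 24.8 and 14.4 CPM in ∆hH2Az and 9.20, 8.39 and 8.72 CPM in Wild type. The within-pair difference was -3.63 (SE 0.267, limma adjusted p = 3.32e-06). NCU06587 rose by 1.34 and NCU06588 fell by 1.71 across a gap of 69 bp on chromosome IV, and NCU17017 fell by 1.26 while NCU01469 rose by 1.74 across 200 bp on chromosome V. Each of these 4 changes had an edgeR adjusted p of 0.00529 or less.

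The most unequal pair held a gene that was nearly silent in ∆hH2Az and less so in the double deletion strain. NCU01348 (chromosome V, 3730157 to 3732570) had 0.956, 1.84 and 0.576 CPM in ∆hH2Az, 56.5, 44.1 and 3.75 CPM in the double deletion strain, 412, 551 and 435 CPM in ∆set-7 and 387, 448 and 240 CPM in Wild type. Its partner NCU16998, 451 bp away, had 5.69, 4.95 and 5.95 CPM in ∆hH2Az and 19.2, 14.2 and 7.39 CPM in Wild type. The log2 fold changes in ∆hH2Az were -8.32 (SE 0.930, edgeR's adjusted p = 8.99e-05) and -1.29 (SE 0.338, adjusted p = 0.0136), and their difference was -7.08 (SE 0.686, limma adjusted p = 2.63e-05). The call of NCU16998 was lost in 2 alternative fits, with an adjusted p of up to 0.0685. NCU17258 rose by 2.76 on the log2 scale in the double deletion strain while NCU08145, 247 bp away on chromosome VII, fell by 0.96 (edgeR adjusted p = 8.53e-05 and 0.0362), and their difference of 3.65 (SE 0.305) passed the limma test (adjusted p = 1.23e-05). The call of NCU08145 was lost in 7 alternative fits.

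**Figure D5:**
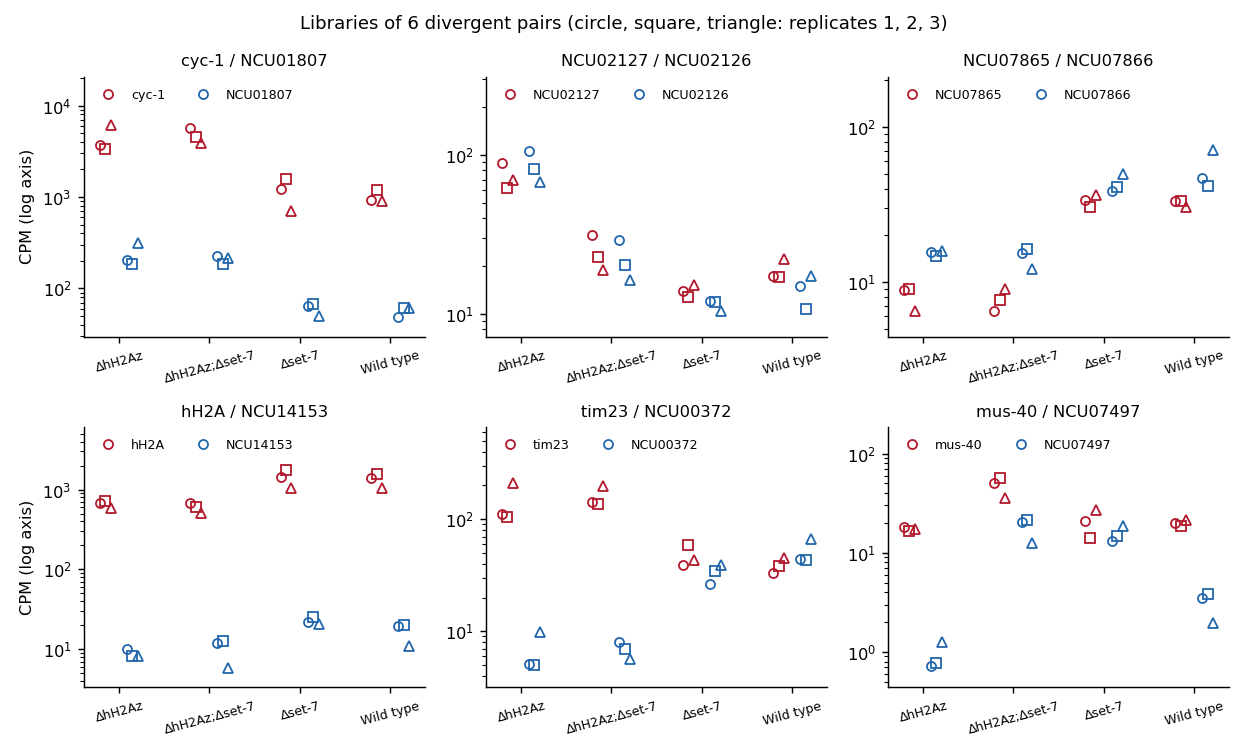
Each panel gives the CPM of the 2 genes of a divergent pair in every library, on a log axis, with red for the first gene named and blue for the second. cyc-1 and NCU01807 are both high without hH2Az, NCU07865 and NCU07866 are both low, and tim23 and NCU00372 part. NCU02127 and NCU02126 are highest in ∆hH2Az, and NCU07497 is lowest in ∆hH2Az (0.717 to 1.25 CPM) and high in both strains lacking set-7 (12.6 to 21.3 CPM).

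The histone genes among the members were hH2A and hH3v. hH2A (NCU02437, chromosome VII, 2487192 to 2488439), the canonical H2A gene, lies 243 bp from the noncoding RNA gene NCU14153 (2488682 to 2489451) and overlaps another annotated gene. hH2A had 687, 712 and 589 CPM in ∆hH2Az, 675, 607 and 510 CPM in the double deletion strain, 1441, 1734 and 1050 CPM in ∆set-7 and 1398, 1557 and 1040 CPM in Wild type. NCU14153 had 10.04, 8.32 and 8.16 CPM in ∆hH2Az, 11.9, 12.9 and 5.83 CPM in the double deletion strain, 22.2, 25.5 and 21.0 CPM in ∆set-7 and 19.8, 20.3 and 11.0 CPM in Wild type. In ∆hH2Az both fell below every Wild type library, by 1.01 (SE 0.232) and 0.94 (SE 0.313) on the log2 scale, with edgeR adjusted p of 0.00704 and 0.0386. hH3v, a variant H3 gene, had a log2 fold change of -0.23 (adjusted p = 0.421) and its partner NCU00146 one of -0.03 (adjusted p = 0.969).

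Ribosomal protein genes were among the most expressed divergent genes and fell together. Of the 8 genes with a crp symbol, 6 are divergent members, and 5 of the 6 fell in ∆hH2Az, with a median log2 fold change of -1.08 against 0.01 over all tested genes, of which 14.9% fell. They encode proteins of the cytosolic ribosome. 1 divergent pair holds 2 of them: ubi::crp-6 (NCU04553, chromosome VII, 1462151 to 1464501), which overlaps another gene, and crp-5 (NCU04552, 1464653 to 1466472), 152 bp apart. ubi::crp-6 had 2283, 2133 and 1111 CPM in ∆hH2Az and 3580, 3953 and 2631 CPM in Wild type. crp-5 had 2456, 2275 and 1527 CPM in ∆hH2Az and 4508, 5500 and 3534 CPM in Wild type. Libraries of the 2 strains did not overlap for either gene, yet the log2 fold change of -1.11 (SE 0.334) passed for crp-5 (edgeR adjusted p = 0.0254) and that of -0.88 (SE 0.384) did not for ubi::crp-6 (adjusted p = 0.104). Their within-pair difference was 0.19 (SE 0.168, limma adjusted p = 0.417). The call of crp-5 was lost in 4 alternative fits and that of crp-4 in 2, with adjusted p of up to 0.0976.

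Partners of the other ribosomal protein genes were mostly not called. crp-2 fell by 1.31 with its partner NCU07829, 56 bp away, which fell by 0.72 (edgeR adjusted p = 0.0112 and 0.0370). Next to crp-15, crp-4 and crp-10, which fell by 1.08, 1.01 and 1.09, the partners had log2 fold changes of 0.46, -0.29 and -0.21, and none passed the test. The 2 other pairs with the highest levels per kilobase also had both genes lower in ∆hH2Az. un-16 and NCU01948, 78 bp apart on chromosome I, fell by 1.00 and 1.04 (edgeR adjusted p = 0.0269 and 0.0147), and NCU02707 and NCU10498, 104 bp apart on the same chromosome, fell by 1.12 and 1.04 (edgeR adjusted p = 0.0106 and 0.0192).

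Of the 29 genes named for subunits of respiratory complex I, which passes electrons from NADH to ubiquinone, 17 are divergent members. In ∆hH2Az 5 fell and none rose, with a median log2 fold change of -0.24, while 14.9% of all tested genes fell and 31.1% were called in either direction. nuo20.9, nuo11.5 and nuo10.6 fell by 2.43, 2.25 and 1.80 (edgeR adjusted p = 4.43e-05, 0.000369 and 0.000111), and nuo10.5 and nuo14.8 by 0.93 and 0.76 (the call of nuo14.8 was lost in 5 alternative fits). Of these 5 only nuo11.5 had a partner that also fell, NCU01361, by 0.99 (edgeR adjusted p = 0.00480). Against ∆set-7, 10 of the 17 fell in the double deletion strain, with a median of -0.75, while 15% of all tested genes fell. Against Wild type 4 of the 17 fell in that strain, with a median of -0.47, while 15.2% of all tested genes fell. In ∆set-7 against Wild type the 17 genes had a median of 0.30 and none was called, with 1.03% of all tested genes called. Genes of mitochondrial protein import went the other way in ∆hH2Az. Of 7 divergent members tim23, tom7, tob55 and tom40 rose in ∆hH2Az by 1.87, 1.11, 1.10 and 0.85, with a median over the 7 of 0.85 and none lower, against 16.2% of all tested genes that rose. Among the partners of these 4 genes only NCU00372, opposite tim23, was called, and it fell. The call of tom40 was lost in 3 alternative fits.

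Genes named for the synthesis of amino acids fell in many divergent pairs, mostly without a call of the partner in the same direction. Of 18 divergent members 11 fell in ∆hH2Az and none rose, with a median of -0.76, against 14.9% of all tested genes that fell. They include trp-1, trp-3 and trp-4 of tryptophan synthesis, which fell by 0.80, 1.44 and 1.35 (edgeR adjusted p = 0.00577, 0.00182 and 0.000841), and arg-10 of arginine synthesis, which fell by 1.28 (adjusted p = 0.00219). Of the tested partners of the 11, 1 fell as well, that of aro-3, and 3 rose, those of cys-12, pro-4 and trp-4. The partner of trp-4, NCU04412, rose by 0.88 (edgeR adjusted p = 0.0206) across 216 bp. The calls of cys-12 and met-6 were lost in 9 and 5 alternative fits.

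Among 16 proteasome members, with 31.1% of all tested genes called, rpn-8 and rpn-9 fell by 0.42 and 0.52 and pcb-4 rose by 0.64 in ∆hH2Az, and 13 did not pass (the call of rpn-8 was lost in 13 alternative fits and that of pcb-4 in 9). Of 9 subunits of the vacuolar ATPase, the proton pump of the vacuole, vma-16 fell by 1.21 and vma-6 rose by 0.58. Among the peroxins, which serve peroxisome formation, pex7 and pex10 fell by 0.70 and 0.77. The call of pex7 was lost in 7 alternative fits. The partner of pex10 fell with it, with a log2 fold change of -1.54 (adjusted p of 0.0179 in edgeR). Of 12 DNA repair members 2 rose and 4 fell. Among the tested partners of these genes 1 was called in the same direction and 2 in the opposite one. mus-42 fell by 1.46 and its partner NCU02054 by 1.85 (edgeR adjusted p = 0.00867 and 2.59e-05). The call of mus-42 was lost in 1 alternative fit. mus-52, which encodes the Ku80 subunit of the end-joining complex, fell by 1.44 while its partner NCU00078 rose by 1.23 (edgeR adjusted p = 0.000247 and 0.00880). The single chaperone member, hsp90a, had a log2 fold change of 0.48 that did not pass the test (edgeR adjusted p = 0.209). None of the 7 genes with a qa symbol is a divergent member.

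Both genes carry a symbol and were tested in 9 divergent pairs. In 1 of them, tca-13 and cyt-18 on chromosome I, both genes were called in ∆hH2Az. cyt-18 encodes the mitochondrial tyrosyl-tRNA synthetase, which also acts in intron splicing. The pair is 107 bp apart and rose by 0.68 (SE 0.209) and 1.49 (SE 0.294) on the log2 scale, with edgeR adjusted p of 0.0285 and 0.00274. The histone deacetylase gene hda-3 and rpn-11, 324 bp apart, had log2 fold changes of -0.04 and -0.18, and neither was called.

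Loss of SET-7 alone called few divergent genes and no divergent pair. In ∆set-7 against Wild type 6 member genes were called, all higher in ∆set-7 (0.367% of genes in tested pairs), and in no pair were both genes called. The share was 0.13% in tandem pairs, which keep the same distance from chromosome ends. It was 1.03% over all tested genes, which include those near the ends. The 6 members called were NCU14124, NCU07497, NCU05920, NCU17251, NCU04114 and NCU02000. Fitted with a block for the replicate number, the calls of NCU02000 (log2 fold change 1.02, edgeR's adjusted p = 0.0723) and NCU17251 (1.27, adjusted p = 0.0690) were lost. The count was 131 genes and 5 pairs of shared direction with the libraries tagged 920 alone, where 10.7% of all genes were called, and DESeq2 called 18 genes and 1 pair, with 1.9% of all genes called. Across the 817 divergent pairs the log2 fold changes correlated at r = 0.172 with a Spearman rho of 0.0210, against 0.210 and 0.0945 across tandem pairs. The within-pair test called 1 divergent pair, against 0.37% of all neighbouring pairs.

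The called genes of ∆set-7 mostly had partners that did not pass. NCU05920 (chromosome VI) had 7.59, 7.04 and 6.14 CPM in ∆set-7 and 2.95, 1.54 and 2.25 CPM in Wild type, a log2 fold change of 1.62 (SE 0.319, edgeR's adjusted p = 0.0317), and its partner NCU05921 had 0.66 (adjusted p = 0.357). NCU04114 (chromosome V) had 174, 217 and 151 CPM in ∆set-7 and 84.6, 99.0 and 63.6 CPM in Wild type, and its partner NCU04113 had a log2 fold change of 0.41 (adjusted p of 0.643 in edgeR). NCU17251 and NCU02000 had values of 1.27 and 1.02, and their partners NCU02256 and NCU01999 of -0.26 and -0.32, with adjusted p of 0.962 and 0.885. These calls depended on the fit. Those of NCU02000, NCU17251, NCU05920 and NCU04114 were lost in 12, 8, 7 and 6 alternative fits, with adjusted p of up to 0.178, and that of NCU14124 in 2.

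The pair called unequal in ∆set-7 lies next to the deleted gene. NCU07497 (chromosome I, 406510 to 408008, plus strand) ends 516 bp from set-7, and its partner across 212 bp is mus-40 (NCU07498, 402099 to 406298), a DNA repair gene named for sensitivity to mutagens. NCU07497 had 13.2, 14.7 and 18.6 CPM in ∆set-7, 20.5, 21.3 and 12.6 CPM in the double deletion strain, 0.717, 0.766 and 1.25 CPM in ∆hH2Az and 3.46, 3.85 and 1.96 CPM in Wild type. mus-40 had 20.8, 14.1 and 26.7 CPM in ∆set-7, 50.9, 56.7 and 36.1 CPM in the double deletion strain, 18.3, 16.7 and 17.4 CPM in ∆hH2Az and 20.1, 18.6 and 21.7 CPM in Wild type. NCU07497 rose in ∆set-7 by 2.33 on the log2 scale (SE 0.333, edgeR's adjusted p = 0.00376) and mus-40 had 0.03 (SE 0.245, adjusted p = 0.992). The within-pair difference was -2.33 (SE 0.366, limma adjusted p = 0.0161). In the double deletion strain against Wild type both rose, by 2.56 and 1.25 (edgeR adjusted p = 0.000246 and 0.00298), while in ∆hH2Az NCU07497 fell by 1.75 (adjusted p = 0.00338). Effects of the deletion on the neighbouring gene and of the lost protein cannot be told apart at this pair.

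Adding the loss of SET-7 to that of H2A.Z called 7 divergent genes (0.428% of genes in tested pairs) and both genes in 2 pairs. The share called was 0.39% in tandem pairs and 1.45% over all tested genes, which include those near chromosome ends. Both genes of the pair beside set-7 were higher in the double deletion strain than in ∆hH2Az. The other pair, NCU02127 (chromosome I, 1156535 to 1158645) and NCU02126 (1159012 to 1160654), 367 bp apart, was named after its values were seen. NCU02127 had 31.6, 22.8 and 18.9 CPM in the double deletion strain, 89.6, 61.8 and 69.4 CPM in ∆hH2Az, 14.0, 12.8 and 15.2 CPM in ∆set-7 and 17.4, 17.0 and 22.2 CPM in Wild type. NCU02126 had 29.2, 20.4 and 16.3 CPM in the double deletion strain, 106, 81.3 and 68.1 CPM in ∆hH2Az, 12.0, 11.9 and 10.5 CPM in ∆set-7 and 15.01, 10.7 and 17.3 CPM in Wild type. For both genes every ∆hH2Az library lay above every other library. In the double deletion strain against ∆hH2Az the log2 fold changes were -1.59 (SE 0.234, edgeR's adjusted p = 0.00345) and -1.96 (SE 0.268, adjusted p = 0.00208), and in ∆hH2Az against Wild type they were 1.96 (SE 0.237, adjusted p = 0.000132) and 2.57 (SE 0.275, adjusted p = 6.63e-05). Over the 817 pairs the correlation in this comparison was 0.356 for divergent and 0.148 for tandem pairs.

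The count of 2 such pairs moved with single libraries and with the libraries tagged 920. It was 5 without ∆hH2Az replicate 3, 6 without replicate 3 of the double deletion strain, 1 without ∆hH2Az replicate 1 or 2 or without replicate 2 of the double deletion strain, and 39 with the libraries tagged 920 alone. Those 39 were 4.76% of divergent pairs, against 60 tandem pairs (5.17%), with 29.5% of all tested genes called. The further genes called were NCU01348, which was higher in the double deletion strain, and NCU06616 and NCU09553, which were lower and are named after their values were seen. NCU06616 (chromosome IV) had 89.5, 64.7 and 93.3 CPM in the double deletion strain, against 229, 167 and 257 CPM in ∆hH2Az. The partners of these 3 genes were not called. In this comparison the calls of NCU06616 and mus-40 were each lost in 3 alternative fits and that of NCU01348 in 1, with adjusted p of up to 0.0918.

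Among the 18 noncoding RNA genes tested, 5 rose and 3 fell in ∆hH2Az, against 16.2% and 14.9% of all tested genes. Both genes were called in the same direction in 2 of the 16 pairs in which the partner was tested. These are the pairs of NCU14124 and of hH2A described above. In the pair with the smallest gap, NCU02028 and NCU02027 on chromosome I which adjoin with a gap of 1 bp, NCU02027 rose by 1.22 in ∆hH2Az (edgeR adjusted p = 0.0221) and NCU02028 had a log2 fold change of 0.20 (adjusted p = 0.444). Replicate 3 of ∆hH2Az, with 97.3 CPM of NCU02027, lay within the Wild type range of 74.0 to 109 CPM. In the pair with the largest gap, NCU00100 and NCU00101 on chromosome III with a gap of 500 bp, the values were 0.17 and -0.64, and neither gene was called (edgeR adjusted p = 0.672 and 0.0506).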

How the data were processed

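Reads per gene were deposited as counts from featureCounts 1.6.2 on the NC12 assembly with no strand setting, per the file headers. Which aligner made the RNA alignments is not given in these sources. Neighbours were taken from the gene positions in the same file, and symbols from RefSeq, which named 10397 of 10398 locus tags. The promoter sequences and gene product descriptions were not used here.

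Genes were filtered with filterByExpr by strain, which left 8372, scaled by TMM and tested with edgeR 4.0.16 (R 4.3.3) in a quasi-likelihood fit over all 12 libraries. Calls have a Benjamini-Hochberg adjusted p under 0.05 over all tested genes. The difference between the genes of a pair was tested with limma 3.58.1 on log2 CPM with a prior count of 2, over all 7036 neighbouring pairs. The fits were tested on simulated data. Totals of 13581416 to 19720473 reads set the counting precision.

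The main fit did not pair libraries, and the replicate number entered only as a block in an alternative fit. Same-numbered libraries of ∆set-7 and Wild type deviated together (r = 0.431, 0.167 and 0.245), while differently numbered ones had r of -0.451 to 0.205. The same held for ∆hH2Az and ∆set-7 (r = 0.156, 0.147 and 0.266, and -0.291 to 0.254 for differently numbered libraries), which were not compared directly. It did not hold for the other strains, and r was negative between the double deletion strain and Wild type (-0.263, -0.0935 and -0.350). Alternatives were DESeq2 1.42.0, other scalings and filters, other gaps, the libraries tagged 920, a replicate block and each library left out.

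Named pairs were those of the histone genes, the largest shared, opposite and unequal changes among genes with a mean of at least 1 CPM, the highest levels, the shortest and longest gaps, and pairs with a gene called in ∆set-7. The other genes named were chosen after their values were seen. The members and lists were chosen with earlier results of these data known.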

Additional observations from a re-analysis of the deposited data

Results flagged for a closer look

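In 2 of the 1731 tested member genes the effect of the ∆set-7 deletion differed by the test of the difference itself between strains with and without hH2Az, against 15 of all 8372 tested genes, and 83 members had an unadjusted p under 0.05. The difference, taken as the effect without hH2Az minus the effect with it, was -5.33 for NCU14124 (log2 scale, SE 0.859, adjusted p of 0.0346 in edgeR). For NCU09553, which had 16.5, 11.6 and 16.2 CPM in the double deletion strain, 41.3, 34.7 and 40.5 CPM in ∆hH2Az, 20.4, 28.6 and 27.8 CPM in ∆set-7 and 16.2, 20.02 and 21.3 CPM in Wild type, it was -1.813 (SE 0.304, edgeR adjusted p = 0.0439). The same test did not pass for their partners NCU08572 (-1.61, edgeR adjusted p = 0.714) and NCU09552 (0.24, edgeR adjusted p = 0.943).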

How the results depend on the processing

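Values follow the order ∆hH2Az, ∆set-7 and the double deletion strain, each against Wild type, then the double deletion strain against ∆set-7 and against ∆hH2Az, and name the comparison where some are left out. With the libraries tagged 920 alone, divergent genes called were 871, 131, 883, 913 and 325, pairs of shared direction 171, 5, 168, 164 and 39, and unequal pairs 432, 79, 440, 449 and 140. In the same order, 55.2%, 10.7%, 54.4%, 57.0% and 29.5% of all tested genes were called with those libraries. There, r was 0.325 over divergent pairs for the double deletion strain against Wild type, and against ∆hH2Az it was 0.462 (tandem 0.201). Replicate 3 alone gave r of 0.280 and 0.239 over divergent pairs for ∆hH2Az and ∆set-7, and over tandem pairs 0.126 for ∆hH2Az and 0.157 and 0.172 for the double deletion strain against Wild type and ∆hH2Az.

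Gaps of 1 to 250 bp left 371 divergent pairs, with 40, 37, 36 and 1 pairs of shared direction in the 4 comparisons other than ∆set-7 against Wild type, where r turned to -0.0375. The double deletion strain against Wild type had r = 0.321, and tandem r was 0.2485, 0.2495, 0.263 and 0.181 in the same 4 comparisons. Gaps of 1 to 1000 bp gave 1 pair and r = 0.252 in ∆set-7, and r = 0.421 (tandem 0.198) in the double deletion strain against ∆hH2Az. Without overlapping genes 36, 33 and 32 pairs shared a direction in the comparisons of H2A.Z loss, with r of 0.405, 0.377 and 0.319, 0.297 in ∆set-7, and tandem r of 0.198 in the double deletion strain against ∆hH2Az.

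Spearman's rho over divergent pairs was 0.239, 0.0210, 0.225 and 0.212 without the comparison with ∆set-7, and over tandem pairs 0.0945 for ∆set-7 and 0.154 and 0.112 for the double deletion strain against Wild type and ∆hH2Az. With a mean of at least 5 CPM, r was 0.212, 0.0208, 0.195, 0.184 and 0.275 over divergent and 0.0995, 0.131, 0.1185, 0.121 and 0.1003 over tandem pairs. With no filter beyond 1 read, ∆set-7 had 1 pair and r of 0.0686 (tandem 0.0875), and the double deletion strain r of 0.271 against Wild type and 0.240 (tandem 0.236) against ∆hH2Az. DESeq2 called 18 genes and 1 pair in ∆set-7 and 23 genes in the double deletion strain against ∆hH2Az. DESeq2's size factors and upper-quartile scaling gave 1 pair each in ∆set-7. Without the pair next to set-7, chosen after seeing the data like replicate 3 alone, 1 pair was left in the double deletion strain against ∆hH2Az.

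Leaving out each library in turn gave 325 to 568, 1 to 8, 332 to 559 and 4 to 40 genes called without the comparison with ∆set-7, and 32 to 90, 36 to 84, 36 to 76 and 1 to 6 pairs of shared direction without ∆set-7 against Wild type. Unequal pairs were 0 to 2 in ∆set-7, 165 to 282 in the double deletion strain against ∆set-7 and 1 to 8 against ∆hH2Az. Divergent r was 0.299 to 0.322 for the double deletion strain against Wild type and 0.304 to 0.445 against ∆hH2Az, and tandem r 0.133 to 0.238 for ∆set-7 and 0.128 to 0.191 for the double deletion strain against ∆hH2Az. The causes were not tested.

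A replicate block gave 509 genes, 70 pairs and r = 0.322 in ∆hH2Az against Wild type, and 4 genes and no pair in ∆set-7. In ∆set-7, mus-40, not called, had -0.12 with the libraries tagged 920, -0.02 without Wild type replicate 2 and -0.19 without ∆set-7 replicate 3, with a range of -0.19 to 0.25 when 1 library was left out, and NCU02256, not called, had 0.42 with the libraries tagged 920 and 0.20 without Wild type replicate 3, with a range of -0.55 to 0.20. Of the alternative values of named genes, 2012 kept their direction and call, 150 lost the call and 6 gained it.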
